A study of Rattus norvegicus with 6 samples.

Results

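The genes described here carry a dividing cell through mitosis. They encode the kinase and cyclins that start it, the condensin and kinetochore proteins that prepare chromosomes for capture, the motors and microtubule binders of the spindle, the checkpoint that waits for attachment, and the proteins that separate and cleave the daughter cells. They were chosen as 54 gene symbols, of which 53 have a row among the 32623 genes of the deposited table. Ccnb2, the cyclin B2 gene, was not matched by symbol and has no value here. All 53 had counts high enough to be tested, so no member was lost to the filter on low counts.

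The series measured messenger RNA of rat liver tissue in 6 libraries. The control group, GM, was embolized with blank microspheres (3 libraries), and the other group, GZM, with microspheres that carry zinc sulfide (3 libraries). Embolization plugs the arteries that supply a tissue, and by its title the series is about hepatocellular carcinoma. Every sample is labelled liver, with no word on whether it was tumour or neighbouring tissue, nor on strain, age or time. Replicates are not stated to be different rats, and the p-values then measure no more than the spread among these libraries. Library totals ran from 13443115 to 16604067 counts. GM 3 stood apart from the other control libraries, and results are given below with and without it where it mattered.

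In an adult liver most hepatocytes rest outside the cell cycle, and transcripts of mitotic genes are scarce. These genes are transcribed mainly in the part of the cycle just before and during division, and they mark dividing cells in tissue sections and expression data. Many of their promoters are known to hold a short element called the cell cycle genes homology region, bound by the MuvB protein complex with B-Myb or FoxM1, and CCAAT boxes bound by the factor NF-Y. In bulk tissue, fewer dividing cells and less RNA per dividing cell cannot be told apart.

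Promoter sequences are shown for 5 members that return in the comparisons below. Cdk1, Cdc20 and Pttg1 fell in GZM, whereas Fzr1 and Bub3 did not pass the test. Each is the 250 bases before the start that the RefSeq promoter table, build GRCr8, takes for the gene, written 5′ to 3′ on the gene's strand. Capitals mark the homology region TTTGAA, its variant TTTAAA and the CCAAT box, each read on either strand, so that TTCAAA and ATTGG are also capitals. The Cdk1 promoter lies at chr20:19265043-19265292 on the plus strand, that of Cdc20 at chr5:137255800-137256049 on the minus strand and that of Pttg1 at chr10:28406327-28406576 on the minus strand. The Fzr1 promoter lies at chr7:8982515-8982764 and that of Bub3 at chr1:195760282-195760531, both on the plus strand.
Cdk1: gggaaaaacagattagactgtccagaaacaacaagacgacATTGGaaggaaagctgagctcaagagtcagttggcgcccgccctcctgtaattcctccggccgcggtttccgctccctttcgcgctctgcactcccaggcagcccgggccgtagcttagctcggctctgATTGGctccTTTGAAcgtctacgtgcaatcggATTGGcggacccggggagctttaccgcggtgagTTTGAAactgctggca
Cdc20: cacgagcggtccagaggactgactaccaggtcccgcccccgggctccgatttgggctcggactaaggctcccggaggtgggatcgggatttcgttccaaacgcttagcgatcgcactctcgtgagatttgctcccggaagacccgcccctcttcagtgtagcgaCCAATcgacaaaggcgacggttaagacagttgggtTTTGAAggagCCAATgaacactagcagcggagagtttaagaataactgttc
Pttg1: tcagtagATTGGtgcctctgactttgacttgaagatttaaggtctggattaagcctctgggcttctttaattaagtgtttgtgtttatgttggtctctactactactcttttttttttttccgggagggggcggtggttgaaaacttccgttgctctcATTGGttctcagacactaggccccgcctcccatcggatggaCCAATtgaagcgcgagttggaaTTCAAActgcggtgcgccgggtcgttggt
Fzr1: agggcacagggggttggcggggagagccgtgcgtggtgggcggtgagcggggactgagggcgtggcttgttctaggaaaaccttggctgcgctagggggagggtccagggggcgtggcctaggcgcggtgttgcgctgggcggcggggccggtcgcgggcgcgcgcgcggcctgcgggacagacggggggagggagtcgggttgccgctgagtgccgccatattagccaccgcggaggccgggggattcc
Bub3: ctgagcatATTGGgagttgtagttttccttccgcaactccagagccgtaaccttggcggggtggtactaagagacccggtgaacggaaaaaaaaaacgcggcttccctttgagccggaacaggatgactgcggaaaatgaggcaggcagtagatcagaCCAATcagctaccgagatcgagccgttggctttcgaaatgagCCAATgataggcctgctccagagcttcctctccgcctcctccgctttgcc

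Of the 54 members, 47 were matched to a promoter by symbol, with 48 promoters in all because Kif2c has 2 entries. The search covered 250 bases before and 50 after the start on both strands, and the 3 motifs do not contain one another. TTTGAA was found in 32 of the 48 promoters (66.7%), against 18.3% of all 33469 RefSeq promoters of the same length. The variant TTTAAA was found in 14 (29.2%, against 13.6%). CCAAT was found in 34 (70.8%, against 37.5%), and at least 2 copies of it in 24 (50.0%, against 11.2%). TTTGAA stood together with CCAAT in 25 member promoters (52.1%, against 7.41%). The start used is the outermost start of the RefSeq gene model for 16 of the 48 member promoters and for 57.8% of all promoters. It is for Cdc20, Fzr1 and Bub3. That of Cdk1 lies 41 bases and that of Pttg1 84 bases downstream of it. Positions are relative to the start used. Of the 39 TTTGAA matches in members, 28 began in the last 120 bases before the start and 8 after it.

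**Figure D1:**
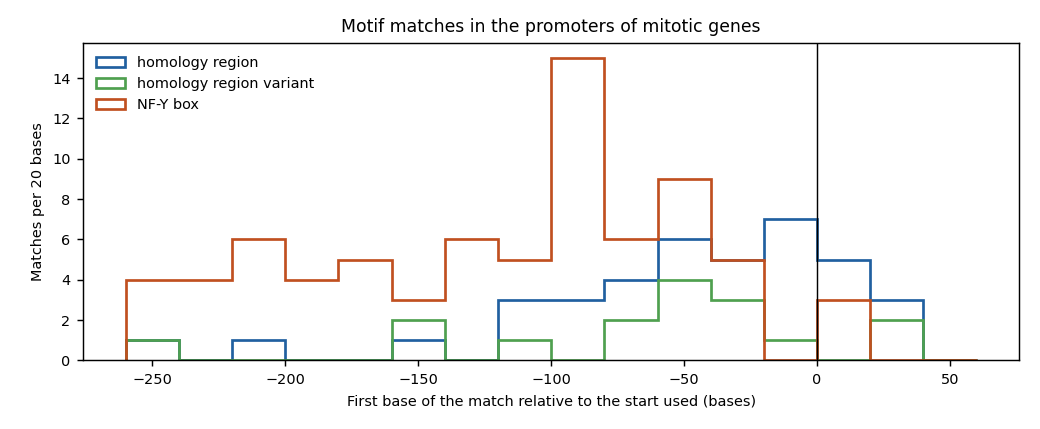
Number of motif matches per 20 bases (y) against the position of the match's first base relative to the start used by the promoter table (x, bases), over the 48 promoters of members. Matches to the homology region gather near the start, 28 of 39 within the last 120 bases before it, while NF-Y boxes spread further upstream.

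A motif match is a description of these letters and no evidence of binding. The median log2 fold change of GZM against GM was -2.06 over 31 members with TTTGAA and -1.98 over 15 without it. Fzr1, with none of the 3 motifs, and Bub3, with 3 CCAAT boxes and neither homology region sequence, were the members with the smallest fold changes. Cdc25b, Cenpk, Cenpn and Spc24 also had CCAAT and neither homology region sequence. They passed as lower in GZM, at -1.46, -1.36, -1.98 and -1.12. Fzr1 was not alone in having a promoter with none of the 3 motifs. Another such member passed as lower in GZM. Whether the motifs bear on the differences was not tested.

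Mitotic genes were lower in GZM from one end of the process to the other. In edgeR's quasi-likelihood test, 50 of the 53 members passed as lower at an adjusted p under 0.05 and none as higher, where 21.7% of all 14298 tested genes were lower and 22.2% higher. None was higher at an unadjusted p under 0.05 either, nor in DESeq2 (51 lower) or in limma on log2 FPKM values (53 lower). FPKM, deposited beside the counts, divides a count by exon length and library total. The members that did not pass, Fzr1, Cenpa and Bub3, also had lower means in GZM, and without adjustment 52 members were lower, Bub3 being the exception. Counts were scaled with TMM factors, edgeR's correction for differences in library composition. Scaled by library totals instead, 8513 of all genes were lower and 1315 higher, and the median of all genes moved by -0.83. The members moved with it, to a median of -2.93 and 53 lower, and their distance from the median of all genes was -2.01 against -1.97 with TMM factors. All 50 were at least 2-fold lower (14.6% of all genes were) and 29 at least 4-fold lower (4.69% of all genes were). The median log2 fold change was -2.06, a 4.16-fold difference, against -0.09 over all tested genes. Members' middle values lay close together, from -2.42 at the lower quartile to -1.85 at the upper.

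The share of counts taken by the 53 genes shows the same. Of every 10000 counts, mitotic genes took 42.8 (GM 1), 56.7 (GM 2) and 17.6 (GM 3) in the controls. In the zinc sulfide group they took 4.60 (GZM 1), 5.18 (GZM 2) and 5.62 (GZM 3). The control libraries differed among themselves by far more than the GZM libraries did. In all 53 members GM 3 was the lowest control library, and in 49 GM 2 was the highest. GM 2 exceeded GM 3 by 1.45-fold to 4.07-fold (median 2.73), where the median ratio over all genes was 0.996. The GZM libraries lay below every control library for 51 of 53 members, where 29.7% of all genes had such an order. Aurka and Cenpa were the members with overlapping groups.

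**Figure D2:**
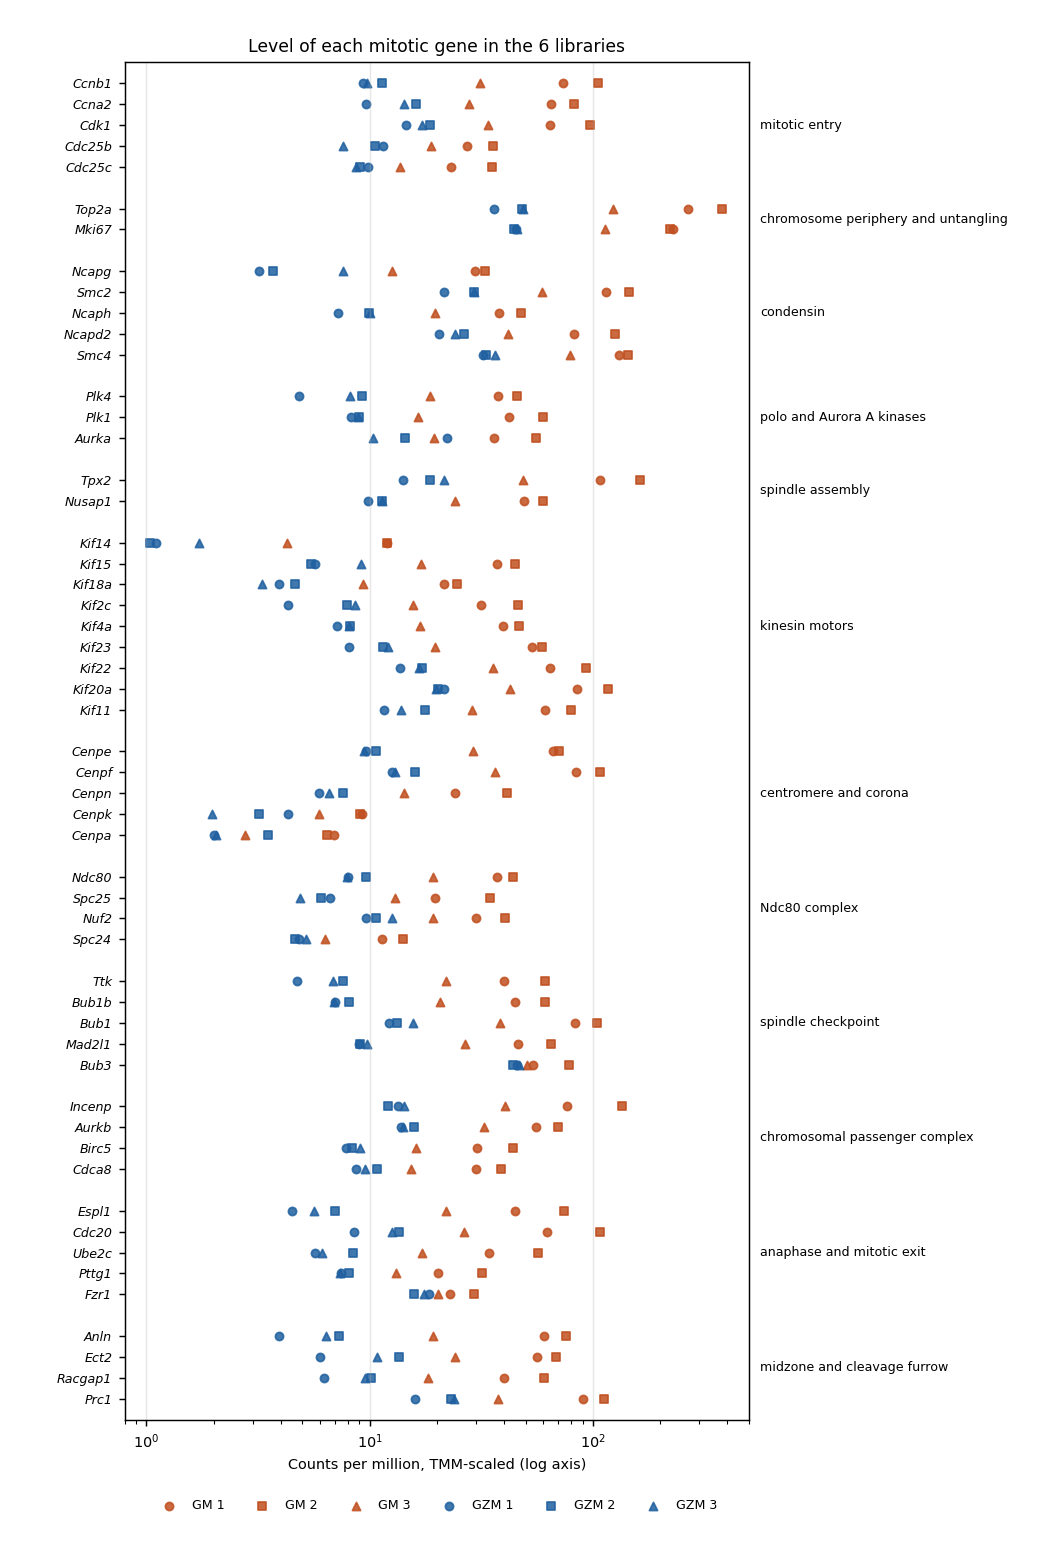
Level of each of the 53 mitotic genes in every library, in TMM-scaled CPM on a log axis (x), with genes grouped by role (y) and control libraries (GM) in orange and zinc sulfide libraries (GZM) in blue. For 51 genes all blue symbols lie to the left of all orange ones, and GM 3, the orange triangle, is the control library nearest to them in every row.

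In the deposited table Mki67 spans positions 207993895 to 208020454 of chromosome 1, Anln 23337621 to 23390773 of chromosome 8, Bub3 203524426 to 203557337 of chromosome 1 and Fzr1 11201690 to 11213613 of chromosome 7. The table does not name its build, and its positions are not comparable with the GRCr8 positions of the promoters. The spans of 11 members overlap another listed gene, 9 of them on the opposite strand, such as Kif20a with Cdc23 and Ccna2 with Exosc9. Whether counting used strand is not stated, so those counts may be shared.

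Levels are given below as counts scaled to a library of 1000000 with TMM factors (CPM), with GM 1, 2 and 3 before GZM 1, 2 and 3. Mki67 (ENSRNOG00000028137), which coats mitotic chromosomes and is the standard marker of cycling cells, stood at 227.7, 222.6 and 113.5 CPM in GM and at 45.2, 44.2 and 45.8 in GZM. Top2a, the topoisomerase that untangles sister DNA, stood at 268.0, 377.6 and 122.8 CPM against 36.2, 48.4 and 48.8. Both were more than 2-fold higher in the lowest control library than in any GZM library. Mki67 was 4.17-fold lower in GZM (log2 fold change -2.06 ± 0.28 SE, edgeR adjusted p = 0.0024) and Top2a 5.76-fold lower (-2.53 ± 0.39, adjusted p = 0.00318).

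All 5 measured genes of mitotic entry fell, by 2.61-fold to 6.93-fold. Cdk1, the kinase whose activation starts mitosis, stood at 64.1, 97.2 and 33.9 CPM in GM and at 14.5, 18.7 and 17.1 in GZM (log2 fold change -1.96 ± 0.36, adjusted p = 0.00488). Ccnb1, its mitotic cyclin, stood at 73.7, 105.7 and 31.2 CPM against 9.33, 11.3 and 9.74 (-2.79 ± 0.41, adjusted p = 0.00287). The highest GZM library was 2.76-fold under the lowest control for this cyclin. Ccna2, the cyclin of S phase and early mitosis, fell by 2.14 on the log2 scale. The Cdk1-activating phosphatases Cdc25b and Cdc25c had smaller differences, -1.46 and -1.39, and Cdc25c lost its call without GZM 2 (adjusted p = 0.0502).

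Among the kinases of centrosome and spindle, Plk1, which drives centrosome maturation and later steps, fell by 2.18 and Plk4, which starts centriole duplication, by 2.19. Plk4 stood at 37.6, 45.7 and 18.6 CPM in GM and at 4.81, 9.24 and 8.17 in GZM (adjusted p = 0.00418). Aurka, the centrosomal Aurora kinase, behaved less evenly. Its levels were 36.2, 55.6 and 19.5 CPM in GM and 22.2, 14.4 and 10.4 in GZM, so that GZM 1 lay above GM 3. It passed narrowly (-1.25 ± 0.41, adjusted p = 0.0398). The call was lost without GM 1, GM 2, GZM 2 or GZM 3 (adjusted p between 0.0869 and 0.123). Tpx2, the spindle protein that activates Aurora A, was far more clearly separated, at 107.2, 162.7 and 48.9 CPM against 14.1, 18.7 and 21.5 (-2.55 ± 0.42, adjusted p = 0.00358). Nusap1, which bundles spindle microtubules, stood at 49.1, 59.7 and 24.2 CPM in GM and at 9.83, 11.4 and 11.3 in GZM (-2.03 ± 0.32, adjusted p = 0.00331).

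All 9 kinesin motors fell, within a narrow range from 3.94-fold for Kif11 to 7.19-fold for Kif14. Kif11, which pushes spindle poles apart, stood at 61.2, 79.8 and 28.8 CPM in GM and at 11.6, 17.6 and 13.8 in GZM. Kif22, which pushes chromosome arms toward the equator, stood at 64.2, 93.1 and 35.6 CPM against 13.6, 17.3 and 16.6 (-2.02 ± 0.33, adjusted p = 0.00365). Kif14, a motor of the midbody, was the lowest member per length in both groups, at 2.59 FPKM in GM and 0.193 in GZM on average. In CPM it stood at 12.0, 11.9 and 4.27 CPM against 1.10, 1.04 and 1.73 (-2.85 ± 0.48, adjusted p = 0.0039). The remaining motors were Kif15 (log2 fold change -2.28), the microtubule-end regulators Kif18a (-2.23) and Kif2c (-2.16), the chromosome-bound Kif4a (-2.13), Kif23 (-2.06) and Kif20a (-1.99).

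Condensin, the ring that compacts chromosomes, fell in all 5 measured subunits, by 3.48-fold to 5.13-fold. Smc4, a core subunit, stood at 131.0, 143.9 and 79.3 CPM in GM and at 32.2, 33.2 and 36.4 in GZM (-1.80 ± 0.24, adjusted p = 0.0024). Its partner Smc2 stood at 114.5, 145.5 and 59.2 CPM against 21.6, 29.3 and 29.4 (-1.99 ± 0.32, adjusted p = 0.00359). The regulatory subunits Ncapd2 (-1.80), Ncaph (-1.95) and Ncapg (-2.36) fell as well.

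At the kinetochore, the plate that holds chromosomes to microtubules, proteins that come and go with mitosis and proteins that stay at the centromere were both lower. Cenpe, a motor of the outer corona, stood at 66.3, 70.3 and 29.1 CPM in GM and at 9.63, 10.7 and 9.42 in GZM (-2.48 ± 0.33, adjusted p = 0.0024). Cenpf, another corona protein, fell by 2.46. Cenpn (-1.98) and Cenpk (-1.36), of the constitutive centromere network, also fell, the latter losing its call without GM 1, GZM 2 or GZM 3 (adjusted p between 0.0587 and 0.0631).

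Cenpa, the histone variant that marks the centromere, did not pass (-1.10 ± 0.43, adjusted p = 0.0718). It was among the scarcest members, at 6.90, 6.43 and 2.78 CPM in GM and 2.01, 3.49 and 2.04 in GZM, so that GZM 2 lay above GM 3. Without GM 3 it passed (-1.37, adjusted p = 0.0135), as it did with DESeq2 (adjusted p = 0.0477).

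All 4 subunits of the Ndc80 complex, which grips microtubule ends, fell, by 2.17-fold to 3.93-fold. Ndc80 itself stood at 37.2, 43.8 and 19.3 CPM in GM and at 8.02, 9.62 and 7.93 in GZM (-1.97 ± 0.31, adjusted p = 0.00323). Spc25 fell by 1.94, Nuf2 by 1.44 and Spc24 by 1.12. Spc24 stood at 11.3, 14.1 and 6.32 CPM against 4.81, 4.62 and 5.18, a separation of 1.22-fold between the nearest libraries. Its call was lost on leaving out any library other than GM 3 (adjusted p between 0.0636 and 0.0908) and with the replicate number as a block (adjusted p = 0.0542).

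The spindle checkpoint, which delays anaphase until every chromosome is attached, held both large and small differences. Bub1, the checkpoint kinase at the kinetochore, stood at 82.9, 104.6 and 38.2 CPM in GM and at 12.2, 13.2 and 15.6 in GZM (-2.46 ± 0.35, adjusted p = 0.00268). Mad2l1, which as part of the checkpoint inhibitor blocks Cdc20, stood at 46.1, 65.2 and 26.6 CPM against 8.93, 9.05 and 9.74 (-2.31 ± 0.32, adjusted p = 0.00249). Bub1b fell by 2.52 and the kinase gene Ttk by 2.68.

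Bub3 (ENSRNOG00000020643), the small propeller protein that carries Bub1 and Bub1b to the kinetochore, had the smallest fold change of all members. Its levels were 54.1, 77.8 and 50.6 CPM in GM and 45.9, 44.0 and 46.8 in GZM. The GZM libraries were lower without overlap, by 1.08-fold between the nearest libraries, and the difference did not pass (-0.42 ± 0.19, adjusted p = 0.108). On the scale of library totals, which moved the median of all genes by -0.83, Bub3 passed at -1.27 (adjusted p = 0.00252). Relative to the median of all genes it stood at -0.33 with TMM factors and at -0.34 with library totals.

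The chromosomal passenger complex corrects faulty attachments and later marks the cleavage plane. All 4 measured genes fell, by 2.90-fold to 6.35-fold. Aurkb, its kinase, stood at 55.5, 69.9 and 32.5 CPM in GM and at 13.8, 15.8 and 14.1 in GZM (-1.85 ± 0.28, adjusted p = 0.00289). Incenp, its scaffold, stood at 76.3, 135.7 and 40.3 CPM against 13.4, 12.1 and 14.2 (-2.67 ± 0.41, adjusted p = 0.00309). Birc5, which encodes survivin, fell by 1.85 and Cdca8, which encodes borealin, by 1.54.

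Anaphase begins when the anaphase-promoting complex, a ubiquitin ligase, destroys securin and cyclin B. Espl1, the separase that securin holds in check and that cuts cohesin, stood at 44.7, 74.5 and 22.1 CPM in GM and at 4.51, 6.98 and 5.65 in GZM. It was 8.23-fold lower (-3.04 ± 0.44, adjusted p = 0.00273), the second largest difference among members. Pttg1, which encodes securin, stood at 20.2, 31.9 and 13.2 CPM against 7.42, 8.11 and 7.38 (-1.51 ± 0.32, adjusted p = 0.00851). Ube2c, the ubiquitin-conjugating enzyme of the complex, fell by 2.42.

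The coactivators of that ligase parted. Cdc20, which activates it in mitosis, stood at 62.4, 108.2 and 26.6 CPM in GM and at 8.52, 13.5 and 12.6 in GZM (-2.51 ± 0.48, adjusted p = 0.0056). Fzr1 (ENSRNOG00000004169), which encodes Cdh1 and keeps the ligase active after mitosis and in resting cells, stood at 23.0, 29.4 and 20.3 CPM against 18.5, 15.8 and 17.5. The GZM libraries were again lower without overlap, and the difference did not pass (-0.49 ± 0.19, adjusted p = 0.0718). Fzr1 passed without GM 3 (-0.56, adjusted p = 0.0381) and with library totals (-1.34, adjusted p = 0.00217). Relative to the median of all genes it stood at -0.40 with TMM factors and -0.41 with library totals.

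Cytokinesis genes fell by 3.81-fold to 8.83-fold, all 4 of them. Anln (ENSRNOG00000014343), which encodes anillin, the scaffold of the contractile ring, had the largest difference of all members. It stood at 60.3, 75.8 and 19.2 CPM in GM and at 3.91, 7.26 and 6.36 in GZM (-3.14 ± 0.51, adjusted p = 0.0035). Ect2, the exchange factor that switches on RhoA at the furrow, stood at 56.5, 68.6 and 24.1 CPM against 6.02, 13.5 and 10.8 (-2.30 ± 0.43, adjusted p = 0.00544). Racgap1, which recruits Ect2, fell by 2.19 and Prc1, which bundles midzone microtubules, by 1.93.

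**Figure D3:**
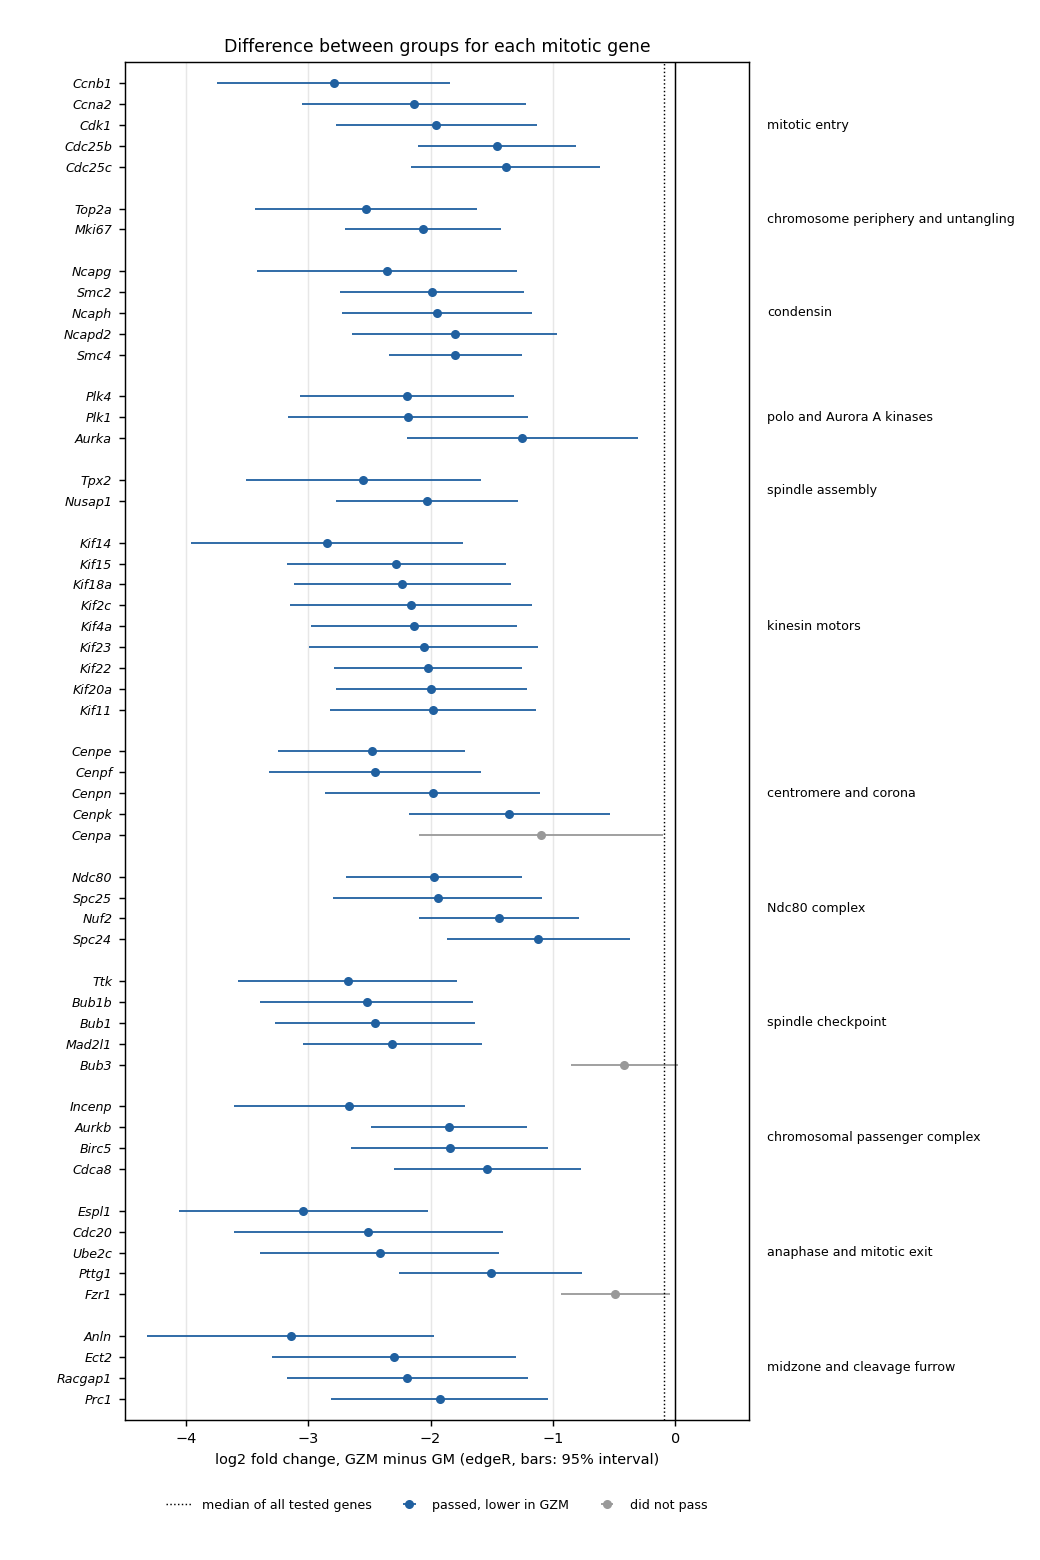
edgeR log2 fold change of GZM minus GM (x) for the 53 mitotic genes grouped by role (y), with 95% intervals as bars. Fold changes run from -3.14 for Anln to -0.42 for Bub3, the dotted line marks the median of all tested genes at -0.09, and the 3 grey genes did not pass.

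Ratios between partner genes were taken within each library from the deposited FPKM values, so they do not depend on how libraries are scaled. With 3 libraries against 3, an exact two-sided permutation test cannot go below p = 0.1, so none of these differences can pass a threshold of 0.05. Cdc20 to Fzr1 was 2.22, 3.01 and 1.07 in GM and 0.379, 0.697 and 0.587 in GZM. Cdc20 was the more abundant coactivator transcript per length in every control library and the less abundant in every GZM library. The geometric mean ratio was 3.59-fold lower in GZM (exact permutation p = 0.1, adjusted over 5 ratios 0.125).

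Bub1b to Bub3 was 0.554, 0.524 and 0.273 in GM and 0.102, 0.123 and 0.0984 in GZM, 4.00-fold lower without overlap (exact permutation p = 0.1, adjusted 0.125). Pttg1 to Espl1, securin to separase, was 2.95, 2.81 and 3.91 in GM and 10.8, 7.60 and 8.48 in GZM. It was 2.78-fold higher in GZM, also without overlap (exact permutation p = 0.1, adjusted 0.125). Aurkb to Incenp was 1.64-fold higher in GZM (0.589, 0.417 and 0.654 against 0.832, 1.06 and 0.804; exact permutation p = 0.1, adjusted 0.125). Kif23 to Racgap1, which together form centralspindlin, overlapped between groups (1.16, 0.860 and 0.939 against 1.14, 0.988 and 1.11; exact permutation p = 0.4, adjusted 0.4).

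**Figure D4:**
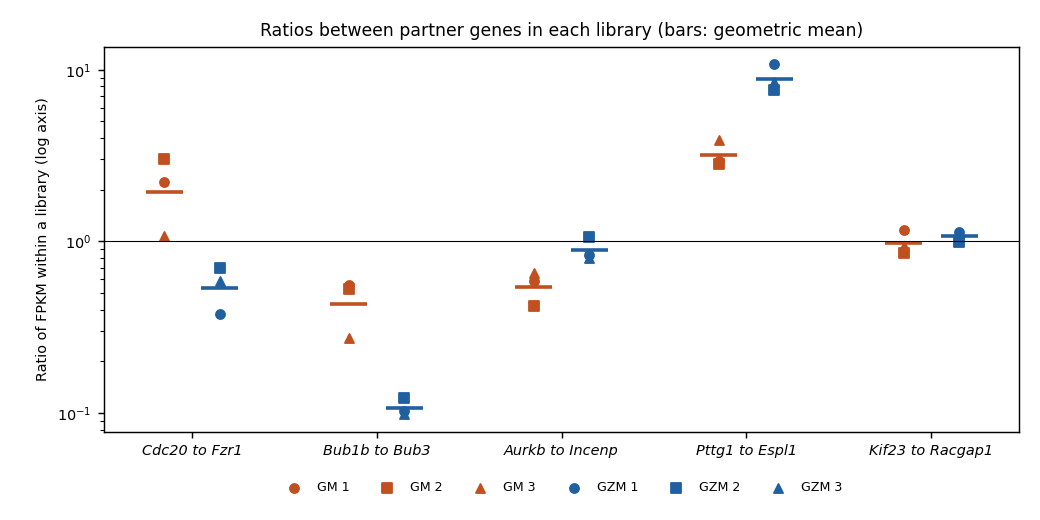
Ratio of the FPKM values of 5 pairs of partner genes within each library (y, log axis), with control libraries (GM) in orange, zinc sulfide libraries (GZM) in blue and the geometric mean of each group as a bar. The groups do not overlap for 4 pairs and overlap for Kif23 to Racgap1.

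Per length, the most abundant members in the control group were Cdk1, at 63.5 FPKM ± 34.8 (SD, n = 3), Top2a at 63.3 ± 35.3 and Ccnb1 at 60.5 ± 35.5. These 3 do not differ beyond their spread. In GZM the order was another. Bub3 led at 12.6 FPKM ± 1.04, ahead of Cdk1 at 8.90 ± 1.09, Fzr1 at 7.23 ± 0.796 and Birc5 at 7.21 ± 0.857, and Ccnb1 stood at 4.71 ± 0.368.

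Other genes of cell division, grouped in 8 lists, moved in the same direction with more exceptions. Of all 14298 tested genes, 21.7% were lower and 22.2% higher. Among other kinetochore proteins 25 of 30 tested rows were lower and none higher in edgeR, at an unadjusted p under 0.05, in DESeq2 or in limma (median -1.81), Kntc1, of the complex that recruits dynein, by 3.37 and the motor Kif18b by 2.72. Spag5 has 2 rows in this list. Among other checkpoint and mitotic kinase genes 8 of 12 were lower and 1 higher (median -1.65), with Trip13, which recycles Mad2, lower by 3.40 and the centrosome kinase Nek2 by 3.20. Spindle pole and microtubule nucleation genes were lower in 26 of 32 cases and higher in 1 (median -1.23), the spindle factors Hmmr by 2.54 and Tacc3 by 1.63. The list of other cytokinesis genes also holds genes not specific to that step, such as Plk2, Plk3, Fam83d and Depdc1. In it 8 of 14 were lower and 3 higher, Plk2 among the latter (median -1.31). The share called higher was no larger than that of all tested genes. Cit, the citron kinase, was lower by 2.42 and the abscission scaffold Cep55 by 2.25.

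Of the 3 other condensin subunits (median -1.60) Ncapd3 fell by 1.67 and Ncapg2 by 1.60. Cohesin, the anaphase-promoting complex and the transcription regulators, which also work outside mitosis, had smaller medians. Cohesin and its protectors were lower in 10 of 14 cases (median -0.66), the centromeric protector Sgo2 by 2.54 and the acetyltransferase Esco2 by 2.31. The list for the ligase that Cdc20 and Fzr1 activate also holds its inhibitor Fbxo5 and the ubiquitin-conjugating enzyme gene Ube2s. In edgeR 5 of its 16 genes were lower, Fbxo5 and Ube2s among them, and none higher (median -0.42). At an unadjusted p under 0.05, 1 was higher, and 1 was higher in DESeq2. Over all tested genes 21.7% were lower. Fbxo5 fell by 2.13, Ube2s by 0.90 and the subunit gene Cdc23 by 0.98. The regulators of mitotic transcription were lower in 5 of 13 cases and higher in 1 (median -0.37). Mybl2, which encodes B-Myb, stood at 68.7, 142.7 and 35.9 CPM in GM and at 6.52, 8.01 and 9.27 in GZM (-3.37 ± 0.49, adjusted p = 0.00273). The NF-Y subunit gene Nfya fell by 0.75, and Nfyb was 0.73 higher on the log2 scale (-0.11 with library totals, and 0.82 and 0.81 above the median of all genes with the respective scalings).

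The genes called higher in GZM in these lists with TMM factors were Nfyb, Mad2l1bp (0.68), Tubgcp6 (0.56), Plk2 (0.53), Arhgef39 (0.51) and Chmp4c (2.37). In no list did the share called higher exceed the 22.2% of all tested genes. Chmp4c, of the abscission machinery, passed in all 13 other settings. With library totals, which moved the median of all genes by -0.83, the other 5 stood between -0.34 and -0.11, and none passed. Relative to the median of all genes they stood between 0.60 and 0.82 with TMM factors and between 0.59 and 0.81 with library totals. Nfyb kept its call when each library was left out. Arhgef39 lost it without the low-count filter, with the replicate block and without GM 1, GZM 1, GZM 2 or GZM 3 (adjusted p between 0.0527 and 0.121). Mad2l1bp lost it without the filter, with the block and without GM 1, GZM 2 or GZM 3 (between 0.051 and 0.125). The block also ended the calls of Tubgcp6 and Plk2, as did leaving out GM 1, GM 2, GZM 1 or GZM 3 for Tubgcp6 (between 0.0514 and 0.0845) and GM 1 or GZM 2 for Plk2 (between 0.0548 and 0.0753).

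**Figure D5:**
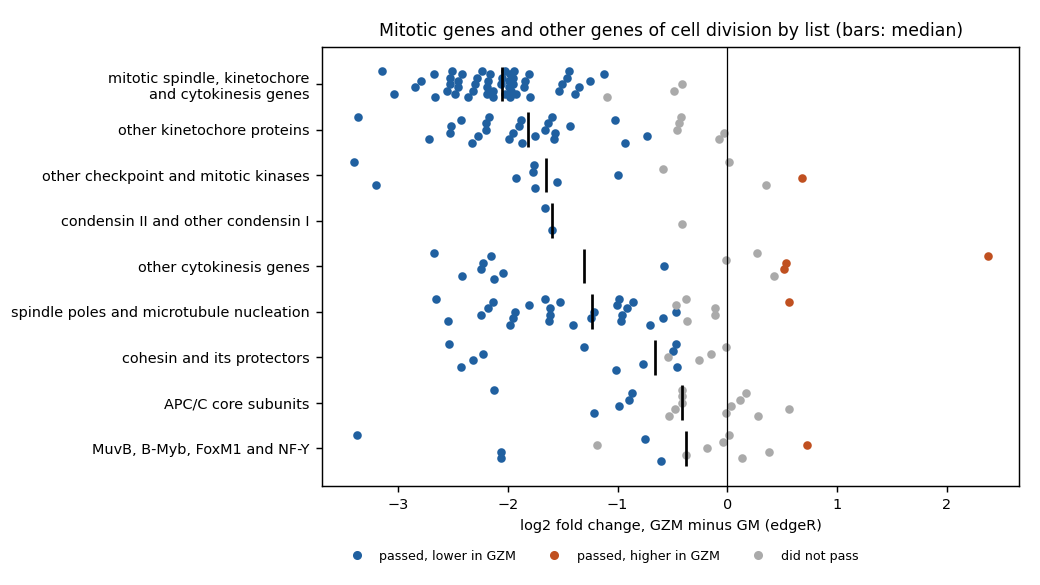
edgeR log2 fold change of GZM minus GM (x) for the 53 mitotic genes and for 8 lists of other cell division genes (y), 1 point a gene, with the list median as a bar. Medians run from -2.06 for the mitotic genes to -0.37 for the MuvB, B-Myb, FoxM1 and NF-Y list, and orange points mark the 6 genes higher in GZM with TMM factors. With library totals 5 of the 6 were below 0 and, relative to the median of all genes, still above it.

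In TMM-scaled CPM, summed levels of hepatocyte, macrophage, endothelial and erythroid markers also did not overlap between groups. Of single tested genes, 29.7% were lower and 28.4% higher without overlap. The sums were not taken with library totals. Hbb was the largest part of the erythroid sum in every library, and its FPKM overlapped (333.89 in GM 3, 286.01 in GZM 2). Alas2, Epor, Ahsp and Klf1 overlapped between groups and did not pass. Summed T-cell markers nearly met, at 267 CPM in GM 2 and 264 in GZM 1. Only Cd8a of the 8 T-cell markers was without overlap. Cd3e stood at 9.11, 13.7 and 23.2 CPM in GM and at 23.2, 3.11 and 2.75 in GZM. Of 12 hepatocyte markers 11 were higher in GZM, and their summed level ran from 15713 to 54333 CPM in GM and from 128578 to 149512 in GZM. GM 3, lowest of the controls in mitotic genes, was the highest of the controls in hepatocyte markers. Of 7 macrophage markers 5 were lower and 1 higher (3089 to 5099 CPM in GM, 1462 to 2025 in GZM). Lyz2, lower by 1.93 on the log2 scale, was the largest part of that sum in every library. The higher marker was Clec4f (2.28), and Marco (1.02) overlapped between groups and did not pass. Of 8 T-cell markers 1 was lower (267 to 510 CPM against 89.9 to 264), of 7 stellate and fibroblast markers 1 lower and 1 higher (3486 to 9569 against 1803 to 4121), and of 6 tested endothelial markers 1 lower and 4 higher (191 to 282 against 315 to 380). Of 6 cholangiocyte markers 1 was higher (126 to 284 CPM against 124 to 206), of 5 tested erythroid markers 1 higher (42.1 to 197 against 272 to 510), of 5 tested neutrophil markers 1 lower (71.0 to 101 against 51.3 to 87.9), and of 6 B and plasma cell markers none passed in edgeR (1 higher at an unadjusted p under 0.05 and 1 higher in DESeq2, 15.6 to 71.2 CPM against 26.0 to 41.8). Where 1 marker of a list passed in a direction, that share was under the 21.7% of all genes that were lower and the 22.2% that were higher. With library totals, 9 hepatocyte markers were higher, no endothelial marker was (2 at an unadjusted p under 0.05), and 4 T-cell and 6 stellate and fibroblast markers were lower. No matched marker was at 0 in every library. Which cells held the mitotic transcripts, and the part of cell makeup in their difference, was not tested.

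Without GM 3, 52 of 53 members were lower at a median of -2.28, and without any 1 of the other libraries between 46 and 49 were. All 689 fold changes of members over 13 other settings were below 0, and 46 members kept their side of the threshold in every setting.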

How the data were processed

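RNA of 6 rat liver samples was sequenced as paired-end, strand-specific, polyadenylated libraries, per the labels' protocols. No source used here names the aligner, the counter or whether strand was used in counting. Per the submitters' processing notes the build is mRatBN 7.2, but positions in the table reach 282724300 on chromosome 1, beyond that build. The deposited counts are whole numbers per gene, not normalized. The deposited FPKM values equal the authors' counts over exon length and library total, within 0.01 for all 32623 genes in every library. Exon sizes in bases, deposited beside them, served for that check. The zinc sulfide columns spell the group ZGM and were matched to GZM by letters and number.

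Genes were tested with edgeR 4.0.16 (R 4.3.3), the quasi-likelihood test with TMM factors, the default low-count filter and Benjamini-Hochberg adjustment at 0.05 over 14298 genes. TMM factors lay between 1.17 and 1.43 for the control libraries and between 0.715 and 0.793 for the others. CPM values are counts scaled to 1000000 with TMM factors. The script was tested on simulated data. Ratios between genes were compared by an exact permutation test, and the planned ratio of Ccnb1 to Ccnb2 was not computed. Replicates differed by more than sampling noise (chi-square per degree of freedom from 10.5 to 194), so each library counted once. Alternatives were no filter, DESeq2 1.42.0, median-of-ratios factors, library totals, limma 3.58.1 on log2(FPKM + 0.1) and log2(FPKM + 0.5), the replicate number as a block, and leaving out each library.

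The members, the 8 pathway lists, the 9 cell type lists and the tests were chosen with earlier results of these data known. Any member may be named. Values in every library are given for the 1 or 2 members of smallest p in each role, for Mki67, Top2a, Cdk1 and Ccnb1, for the largest and smallest fold changes and for members that did not pass. From each pathway list the text names the 2 genes of smallest p and those that rose. Aurka, Spc24, Kif11, Cdc20 and Pttg1 also have library values, chosen after their values were seen. Promoters are from RefSeq, build GRCr8. Figures were drawn with matplotlib 3.10.9.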

Additional observations from a re-analysis of the deposited data

How the results depend on the processing

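The count of members lower in GZM ran from 49 with the replicate block to 53 with library totals and with limma, and from 46 to 52 when each library was left out in turn. The member median on the log2 scale ran from -2.93 with library totals to -1.75 without GM 2, and was -1.94 with the block. Scaling moved the counts over all genes: library totals gave 1315 higher and 8513 lower with a member median of -2.93, limma 1362 higher and 8560 lower with a pseudocount of 0.1, and 1364 higher and 8536 lower with 0.5. Leaving out each library gave 2112 to 3592 genes higher and 1665 to 3432 lower. The lowest counts came without GZM 2, and without GZM 3 there were 1954 lower. With library totals and with limma at 0.1 and 0.5, where the median of all genes was -0.92, -0.88 and -0.76, log2 fold changes turned negative for Arhgef39 (-0.34, -0.32 and -0.29), Mad2l1bp (-0.16, -0.14 and -0.13), Nfyb (-0.11 in each), Plk2 (-0.31, -0.30 and -0.29) and Tubgcp6 (-0.27, -0.27 and -0.25). All 5 stayed above the median of all genes in these settings, by 0.47 to 0.81.

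Same-numbered samples had correlations of deviations of -0.14, 0.16 and -0.274, and not every sample correlated best with its own number. The labels do not say whether equal numbers pair the samples. Deviations from a mean of 3 libraries cannot settle it. With the replicate block 2676 genes were higher and 2490 lower. In 13 alternatives 4 members lost a call in at least 1 (Spc24, Cenpk, Cdc25c and Aurka) and 3 gained one (Fzr1, Cenpa and Bub3). The ratios of partner genes kept their sign when each library was left out.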

Other observations

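Cyclin B2 partners Cdk1 beside cyclin B1, and its gene symbol had no match in the table. One row that is no member, AABR07000658.2 (ENSRNOG00000055111), is described in the deposited table as similar to cyclin B2 and was looked at after its values were seen. It stood at 23.1, 32.6 and 15.7 CPM in GM and at 8.12, 8.30 and 6.52 in GZM, without overlap. Its log2 fold change was -1.64 ± 0.29 SE (edgeR adjusted p = 0.00461). Whether this row counts reads of cyclin B2 itself was not tested.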
